A study of Rattus norvegicus with 8 samples.

Results

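Nqo1 and 8 other genes of the NRF2 pathway, Hmox1, Gclc, Gclm, Txnrd1, Gsr, Srxn1, Keap1 and Nfe2l2, were followed in thigh skeletal muscle of rats fed compound 177. Their probes were found by the gene symbol that the array platform's annotation gives. The genes themselves were chosen with earlier results of these data known. Each of the 9 had 1 probe, so 9 probes of the 22523 in the table were read. The study measured 8 Wistar Han rats on Illumina rat bead arrays, 1 array per rat: 4 controls on standard laboratory chow and 4 rats given chow with 150 ppm of compound 177, a sulfonyl isoxazoline, for 28 days. Control muscle was taken at the same 28 days, and the age and sex of the rats were not used here. The series title names mitochondrial toxicity in skeletal muscle as the question.

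NRF2, the product of Nfe2l2, is a transcription factor that is held low by KEAP1, an adaptor that presents it to a CUL3 ubiquitin ligase for degradation by the proteasome. Electrophiles and oxidants modify cysteines of KEAP1, NRF2 then escapes degradation, pairs with a small MAF protein and binds antioxidant response elements near its target genes. The targets detoxify quinones, make and recycle glutathione, run the thioredoxin system and break down heme. Because NRF2 is controlled mainly at the level of the protein, its own transcript need not follow its activity. Nqo1, Srxn1, Txnrd1 and the glutathione synthesis genes are common transcript readouts of that activity in rodents.

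In muscle of the treated rats the Nqo1 level was above that of every control rat, with a mean difference of 0.46 on the log2 scale, or 1.38-fold (95% confidence interval 1.11 to 1.71, n = 4 and 4). The groups overlapped in each of the other 7 genes that could be tested. Over all tested probes, groups did not overlap in either direction for 2.41%. Hmox1, Gclc and Gclm differed by -0.02, 0.04 and -0.02 between the group means. No difference, that of Nqo1 included, passed the test over all 10212 tested probes: with limma every one of the 8 had an adjusted p of 0.9999. The ninth, Srxn1, was not above background on any of the 8 arrays and was not tested. Levels and differences in the text are log2 values of background-corrected, quantile-normalized intensity unless said otherwise, and differences are compound 177 minus control.

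The arrays were of similar quality apart from those numbered 2. Between 9261 and 10620 probes per array had a detection p below 0.05, with the lowest counts on compound 177 replicate 2 (9261) and control replicate 2 (9634). Pairwise correlations over the tested probes ran from 0.965 to 0.991. The muscle genes Acta1, Ckm, Des and Mb were above background on all 8 arrays, and 0 of the 2 skin keratins on the array passed the filter. Marker lists of other cell types were read beside the results. All 10 measured genes of fibroblasts and matrix lay below control (mean list level 10.72 to 11.51 in control and 9.85 to 11.45 in treated rats), as did all 9 of slow fibres (9.51 to 11.61 and 8.93 to 11.23) and all 6 of macrophages (7.51 to 8.23 and 6.65 to 8.17), with 0 genes of these lists past the test. Below control were also 6 of 7 fast-fibre, 4 of 4 nerve, 2 of 4 adipocyte, 3 of 5 endothelial, 2 of 3 blood and 2 of 2 liver genes, and the macrophage gene Adgre1 did not pass the filter. Over all tested probes, the mean was above control for 53.4%. In bulk muscle, fewer cells of a type and less RNA per cell cannot be told apart. The slow-fibre list was uneven between rats: its mean difference was -0.14 in replicates 1 and 2 and -2.19 in replicates 3 and 4, and all 9 genes were higher in the treated rat of number 1 (Myh7 by 2.15, Tnni1 by 2.60) and lower in that of numbers 2, 3 and 4. The mean difference was -0.70 and -0.60 in these sets for matrix genes and -0.81 and -0.17 for macrophage genes. The mean list levels of the groups overlapped except for endothelial genes, which were at 8.51 to 8.65 in control and 8.44 to 8.50 in treated rats. Of all the single marker genes read, the groups did not overlap for Fabp4 and Ngfr, beside 2.41% of all tested probes in either direction. Fabp4 of the adipocyte list was 0.25 higher in treated rats (SE 0.10). Ngfr of the nerve list had a difference of -0.28 (SE 0.10). Neither was past the test (limma adjusted p = 0.9999). The part of cell composition in the results below was not tested.

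**Figure D1:**
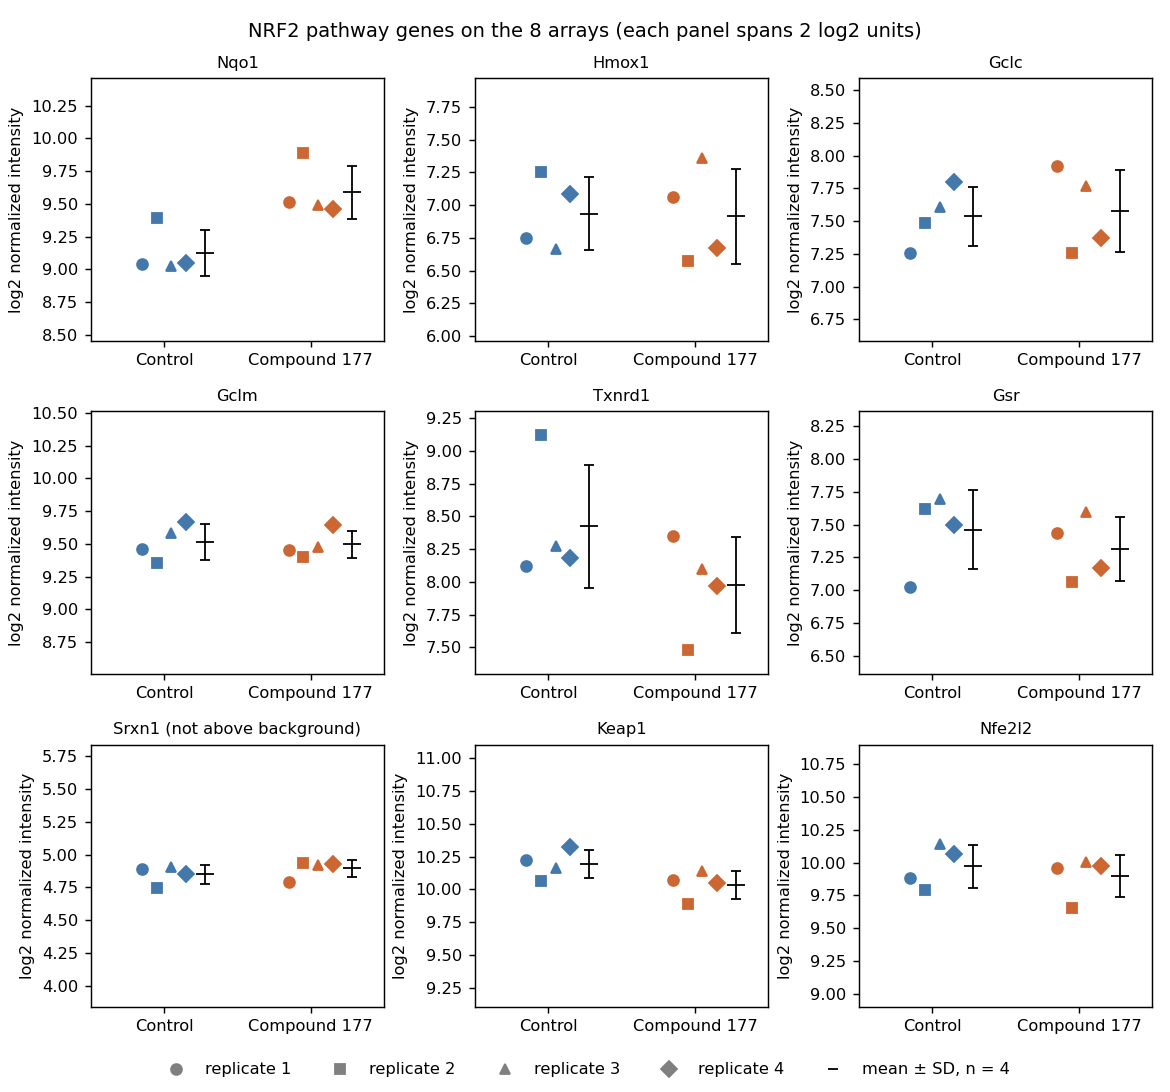
Level of each of the 9 genes on the 8 arrays (vertical axis, log2 normalized intensity; each panel spans 2 log2 units) in control and compound 177 rats, with 1 symbol per replicate number and the mean ± SD of 4 rats beside it. The Nqo1 values of treated rats (9.46 to 9.89) all lie above those of controls (9.02 to 9.39), while the groups overlap in the other panels.

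Nqo1 encodes NAD(P)H quinone dehydrogenase 1, a flavoprotein that reduces quinones by 2 electrons at once and so keeps them out of radical cycles. It was read by probe ILMN_2039396, which had a detection p of 0 on all 8 arrays. The deposited intensities in control replicates 1 to 4 were 685, 657, 582 and 567, and in compound 177 replicates 1 to 4 they were 1038, 854, 788 and 717. The lowest treated value thus lay above the highest control value before any normalization. After normalization the control levels were 9.04, 9.39, 9.02 and 9.05 (9.13 ± 0.18, SD, n = 4) and the treated levels 9.51, 9.89, 9.49 and 9.46 (9.59 ± 0.20). The replicate numbered 2 was the highest of its group in both groups, and the other 3 rats of each group lay close together, at 9.02 to 9.05 and 9.46 to 9.51. The difference was 0.46 (SE 0.14, 95% confidence interval 0.15 to 0.78). Groups that did not overlap with treated rats higher were found for 174 probes, 1.7% of those tested, and Nqo1 was the 1 member of 8 among them.

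The 4 differences between rats of the same replicate number were nearly equal for Nqo1, at 0.47, 0.50, 0.47 and 0.41 for numbers 1 to 4. All 4 numbers were higher in treated rats, which held for 9.3% of tested probes. For Nqo1 this follows from groups that did not overlap and is not a second result. With the replicate number as a block the standard error of the Nqo1 difference fell from 0.14 to 0.10, its p ranked 13 among the 10212 probes against 43 without the block, and it again did not pass (limma adjusted p = 0.745). The authors' normalized values fall into 2 sets of 4 arrays, replicates 1 and 2 and replicates 3 and 4 of both groups. The Nqo1 difference was 0.49 in the first of these sets and 0.44 in the second, and the second minus the first was -0.05 (SE 0.26, limma adjusted p = 0.9996). Without both arrays numbered 2, the Nqo1 difference was 0.45 (SE 0.11). Treated and control rats did not overlap there, which follows almost wholly from their separation over all arrays. With these arrays left out, a choice made after seeing the data, 4.12% of probes had treated rats above all controls.

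**Figure D2:**
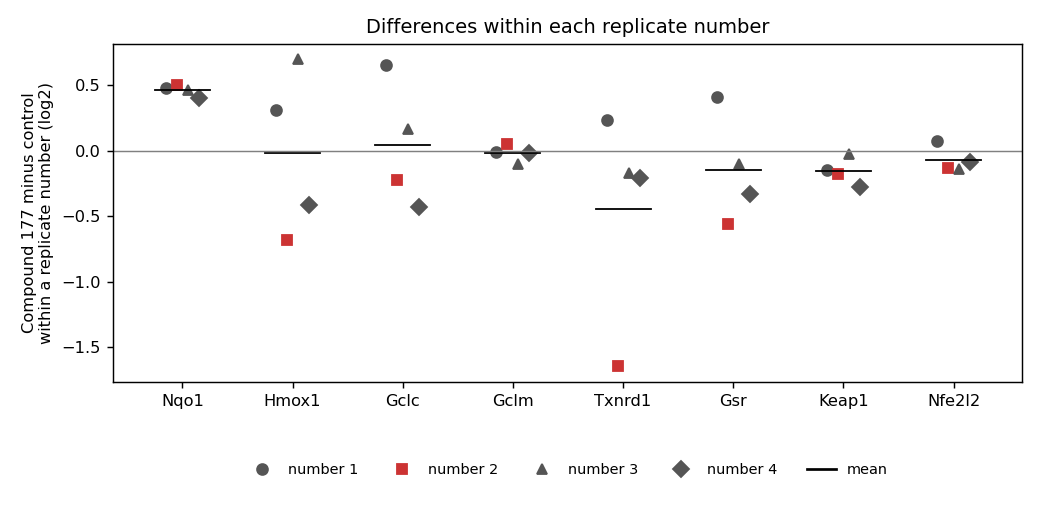
Difference between the compound 177 and the control rat of each replicate number (vertical axis, log2) for the 8 tested genes, with 1 symbol per number, number 2 in red and a bar at the mean. The 4 Nqo1 values lie between 0.41 and 0.50, whereas those of Txnrd1 run from -1.65 to 0.23.

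The second gene of the quinone branch, Nqo2, encodes a related reductase that takes its electrons from dihydronicotinamide riboside. Its mean level was 8.81 ± 0.21 (SD, n = 4) without and 9.19 ± 0.23 with the compound, a difference of 0.39 (SE 0.15), with 0.58 in the first set and 0.19 in the second. The ranges met, since the lowest treated rat was at 8.87 and the highest control rat at 8.96. Akr7a2, an aldehyde reductase, differed by 0.29 (SE 0.13), with control rats at 8.12 to 8.24 and treated rats at 8.27 to 8.76. Its groups did not overlap, the gap between them being smaller than that of Nqo1. Neither gene passed (limma adjusted p = 0.9999). Nqo2 and Akr7a2 are named because they had the smallest p of the 16 tested quinone, aldehyde and conjugation enzymes and exporters. The median difference of these 16 was 0.07.

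The RefSeq promoter windows (build GRCr8, 250 bases before to 50 after a gene's start) were searched for the core of the antioxidant response element, TGACNNNGC, on both strands. Of the 9 genes, 7 had a window, and Hmox1 and Gsr had none in the table used. The core was present for 3 of these 7 (Gclm, Nfe2l2 and 1 of the 2 Txnrd1 windows), against 13.1% of 27457 genes with a window and 25 of 101 genes (24.8%) of the wider pathway list described below. The wider core TGANNNNGC contains the first and was added after the data were seen. It was found in 6 of 7, against 42.5% of all genes and 58 of 101 (57.4%) of the wider pathway list. The Nqo1 window held no TGACNNNGC and 1 TGANNNNGC. Bases further than 250 before the start were not searched, so an element there would not have been seen. It is printed because Nqo1 is the gene whose groups did not overlap, and the Gclm window and the second Txnrd1 window because they hold the narrower core while their genes did not follow Nqo1. Capitals mark the matches of either core. The windows lie at chr19:52220218-52220517 on the minus strand for Nqo1, chr2:213031885-213032184 on the plus strand for Gclm and chr7:22755855-22756154 on the minus strand for Txnrd1.
Nqo1: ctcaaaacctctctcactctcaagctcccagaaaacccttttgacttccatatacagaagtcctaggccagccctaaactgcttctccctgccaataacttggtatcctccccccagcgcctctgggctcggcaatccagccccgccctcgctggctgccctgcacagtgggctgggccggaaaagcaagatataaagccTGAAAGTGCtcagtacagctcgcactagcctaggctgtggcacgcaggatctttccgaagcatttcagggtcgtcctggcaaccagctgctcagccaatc
Gclm: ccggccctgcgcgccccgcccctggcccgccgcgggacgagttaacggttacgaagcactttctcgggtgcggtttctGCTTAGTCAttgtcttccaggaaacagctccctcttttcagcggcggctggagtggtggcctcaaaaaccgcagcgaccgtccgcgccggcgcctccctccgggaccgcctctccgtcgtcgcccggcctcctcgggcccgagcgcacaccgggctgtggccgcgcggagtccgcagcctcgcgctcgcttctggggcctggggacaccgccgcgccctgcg
Txnrd1: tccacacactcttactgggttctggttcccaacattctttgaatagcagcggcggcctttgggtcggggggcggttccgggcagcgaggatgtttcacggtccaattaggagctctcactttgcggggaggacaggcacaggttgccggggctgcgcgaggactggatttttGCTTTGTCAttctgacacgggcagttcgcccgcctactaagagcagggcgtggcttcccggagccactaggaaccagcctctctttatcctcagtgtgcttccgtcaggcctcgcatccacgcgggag
A match is a description of these letters and not a binding site. In the Nqo1 window it starts at base 201 of 300, and in the Gclm and Txnrd1 windows the matches start at bases 79 and 173 and lie on the reverse strand.

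The enzymes of glutathione synthesis were measured on all 8 arrays. Gclc encodes the catalytic subunit of glutamate-cysteine ligase, the rate-limiting enzyme of glutathione synthesis. Its levels were 7.26, 7.49, 7.61 and 7.80 in control replicates 1 to 4 and 7.92, 7.26, 7.77 and 7.37 in treated replicates 1 to 4. The ranges covered each other almost wholly, and the difference was 0.04 (SE 0.18, 95% confidence interval -0.36 to 0.44). Gclm encodes the modifier subunit that lowers the ligase's feedback inhibition by glutathione. Its control levels were 9.46, 9.35, 9.58 and 9.67 and its treated levels 9.46, 9.40, 9.48 and 9.65. The difference of -0.02 (SE 0.11) had a 95% confidence interval from -0.27 to 0.23, the narrowest of the 5 tested target genes other than Nqo1. On a linear scale this interval runs from 0.83-fold to 1.18-fold.

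Gsr encodes glutathione reductase, which returns oxidized glutathione to its reduced form with NADPH. Its levels were 7.03, 7.62, 7.70 and 7.50 in control and 7.44, 7.06, 7.60 and 7.17 in treated rats. Control replicate 1 and compound 177 replicate 2 were the lowest rats, and the groups overlapped. The difference was -0.14 (SE 0.18, 95% confidence interval -0.55 to 0.26), and -0.01 without both arrays numbered 2.

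Txnrd1 encodes the cytosolic thioredoxin reductase, a selenoprotein that keeps thioredoxin reduced. Its control levels were 8.12, 9.12, 8.27 and 8.18 and its treated levels 8.35, 7.48, 8.10 and 7.97. Control replicate 2 was the highest of the 8 rats and compound 177 replicate 2 the lowest, and both arrays are those with the fewest detected probes. The difference of -0.45 (SE 0.25, 95% confidence interval -1.02 to 0.12) therefore rested on these rats: it was -0.22 without control replicate 2, -0.28 without compound 177 replicate 2 and -0.05 without both. Within replicate numbers 1, 3 and 4 the values were 0.23, -0.17 and -0.21, against -1.65 within number 2. With array weights it was -0.27. In direction Txnrd1 was opposite to Nqo1, and in number 2, where Nqo1 was high in both groups, Txnrd1 was high in the control rat alone.

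Srxn1 encodes sulfiredoxin, which repairs overoxidized peroxiredoxins. Its deposited intensities ran from 72.3 to 91.7 in control and from 84.2 to 90.6 in treated rats, and its detection p from 0.424 to 0.892 over the 8 arrays. The probe was not well above background in either group, so no fold is given, and a change below this background would not have been seen.

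Hmox1 encodes heme oxygenase 1, which opens heme into biliverdin, iron and carbon monoxide and is expressed in macrophages as well. Its control levels were 6.75, 7.25, 6.66 and 7.08 and its treated levels 7.06, 6.57, 7.36 and 6.67. High and low rats were found in both groups, and the difference was -0.02 (SE 0.20, 95% confidence interval -0.48 to 0.44). All 8 arrays were above background, with detection p up to 0.00727 and deposited intensities of 160.0 to 255.8. The sign of the difference turned in 4 of the 8 runs with 1 array left out and in 3 of 12 other settings. Its difference was -0.18 in replicates 1 and 2 and 0.14 in replicates 3 and 4, and the second minus the first was 0.33 (SE 0.43, limma adjusted p = 0.9996).

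The regulators were measured far above background. Nfe2l2, the gene of NRF2 itself, was at 9.88, 9.79, 10.14 and 10.06 in control and 9.96, 9.66, 10.01 and 9.97 in treated rats. The groups overlapped, with the rat numbered 2 the lowest of each group, and the difference was -0.07 (SE 0.13, 95% confidence interval -0.36 to 0.22). Keap1, the gene of its inhibitor, was at 10.22, 10.06, 10.16 and 10.32 in control and 10.07, 9.88, 10.14 and 10.05 in treated rats. The difference was -0.16 (SE 0.11, 95% confidence interval -0.40 to 0.09). Keap1 was lower in the treated rat of all 4 replicate numbers (-0.15, -0.18, -0.02 and -0.27), which held for 6.46% of tested probes. Its groups overlapped over 4 rats, and without both arrays numbered 2 the 3 treated rats lay below the 3 controls, as they did for 3.26% of probes. The Keap1 difference was -0.20 to -0.11 with 1 array left out at a time.

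**Figure D3:**
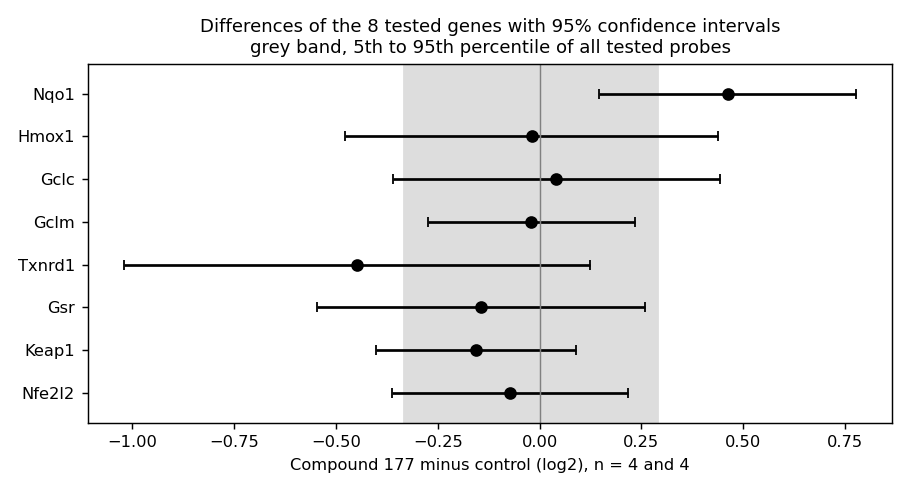
Difference of the 8 tested genes (horizontal axis, log2, compound 177 minus control, n = 4 and 4) with 95% confidence intervals from limma, unadjusted for the number of probes; the grey band spans the 5th to 95th percentile of all tested probes (-0.33 to 0.29). Nqo1 at 0.46 and Txnrd1 at -0.45 lie outside the band, and the interval of Nqo1 is the one that does not reach 0.

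As a group the 8 tested genes did not lean towards treated rats. The mean was above control for 2 (Nqo1 and Gclc, the latter at -0.016 with median scaling) and below for 6, with a median difference of -0.05, beside 53.4% of all tested probes above control and a median of 0.01. Of the 8, 0 passed at an adjusted p below 0.05, where the background was 0% of probes with limma and 0% with the replicate number as a block. At an unadjusted limma p below 0.05 the background was 3.88% of probes (396), and 6.43% (657) with the block. Compound 177 replicate 2 had 1 of the 8 genes above its own mean over the arrays, namely Nqo1, and control replicate 1 also had 1, whereas the other 6 arrays had 3 to 6. The median deviation of the 8 genes was -0.29 on compound 177 replicate 2 and between -0.13 and 0.14 on the other arrays. The same counts and medians were not taken over all tested probes, so these values do not set the 8 genes apart from other probes.

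Genes whose profile over the 8 arrays was closest to that of Nqo1 were sought among the 7298 other named genes tested, by the root mean square difference between deviations from each gene's own mean. The closest were Prorsd1 (0.11), Chm, a Rab escort protein (0.11), Opa1, the GTPase that fuses inner mitochondrial membranes (0.12), Usp54 (0.12) and Akr7a2 (0.12). Opa1 was at 7.63 to 7.97 in control and 7.90 to 8.66 in treated rats, a difference of 0.47 (SE 0.17, limma adjusted p = 0.9999). Of the other tested members, Gclm had the smallest distance from Nqo1 (0.35) and Txnrd1 the largest (0.60). Akr7a2 was nearer to Nqo1 than any of these 7, which follows from its being named as one of the closest genes of the search. The distance includes the difference between the groups. Higher values of the closest genes in treated rats therefore follow from the search as well.

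Other genes of the pathway were taken from a list of 123 symbols in 7 roles, some of them older names of the same gene. The array annotation held 106 of them and 86 passed the filter on dim probes, while 20 did not, among them Slc7a11, the cystine importer, and the alpha-class glutathione transferases Gsta1 to Gsta5. The mean was above control for 57 of the 86 (66.3%, beside 53.4% of all tested probes) and below for 29, with a median difference of 0.06 beside 0.01. Of the 86, 0 passed in either direction (limma). Groups did not overlap for 1 gene with treated rats higher (Akr7a2) and for 1 with treated rats lower (Maf), beside 1.7% and 0.705% of all tested probes. The difference was higher in all 4 replicate numbers for 13 genes (15.1%, beside 9.3%) and lower in all 4 for 2 (2.33%, beside 6.46%). These shares describe the list, which was drawn up by role, and carry no test. Whether each listed gene is a target of NRF2 was not tested.

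**Figure D4:**
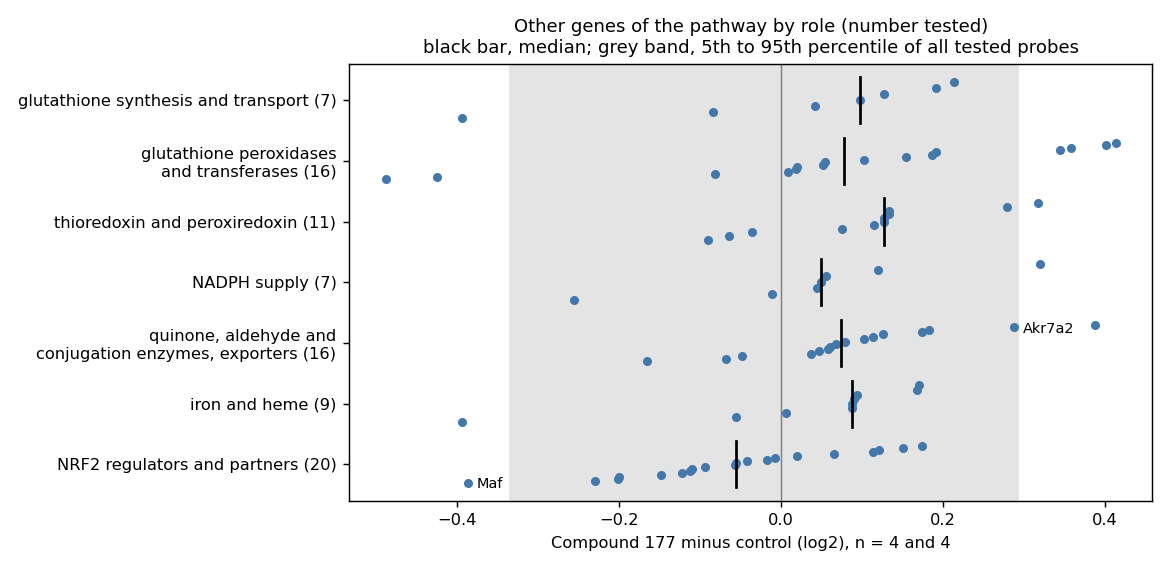
Differences of the 86 other pathway genes that were tested (horizontal axis, log2, compound 177 minus control, n = 4 and 4), by role, with a black bar at each role's median; genes whose groups did not overlap are named. Medians lie between 0.05 and 0.13 in 6 roles and at -0.06 among NRF2 regulators and partners.

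The mean was above control for most tested genes in each of the 6 enzyme and transport roles. Thioredoxin and peroxiredoxin genes were above control in 8 of 11, with a median of 0.13. Among them were Txnrd3, a thioredoxin reductase with a glutaredoxin domain (0.32, SE 0.12), Prdx5, a peroxiredoxin found in mitochondria (0.28, SE 0.13), and Prdx2 of the cytosol (0.13, SE 0.11). Glutathione peroxidases and transferases were above control in 13 of 16, with a median of 0.08. Gstm7, a mu-class transferase, differed by 0.41 (SE 0.18), Gsto1, an omega-class transferase, by 0.34 (SE 0.16), and Gpx3, the secreted peroxidase, by -0.42 (SE 0.24; -0.70 in replicates 1 and 2 and -0.15 in replicates 3 and 4). The mu-class genes are close paralogs, and whether their probes tell them apart was not tested.

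Quinone, aldehyde and conjugation enzymes and exporters were above control in 13 of 16, with a median of 0.07, and besides Nqo2 and Akr7a2 the smallest p was that of Cbr4, a mitochondrial carbonyl reductase (0.17, SE 0.13). Genes of glutathione synthesis and transport were above control in 5 of 7 (median 0.10), with the amino acid transporter Slc1a5 at -0.39 (SE 0.28), Glrx2, the mitochondrial glutaredoxin, at 0.10 (SE 0.10) and Ggt7 at 0.21 (SE 0.24). For NADPH supply 5 of 7 were above control (median 0.05). The 2 malic enzymes with the smallest p had opposite signs: Me3 of mitochondria differed by 0.32 (SE 0.16) and Me1 of the cytosol, a known NRF2 target, by -0.26 (SE 0.16). Me2 differed by 0.12 (SE 0.18). Genes of iron and heme were above control in 7 of 9 (median 0.09), with Fech, the last enzyme of heme synthesis, at 0.17 (SE 0.11), the ferritin heavy chain Fth1 at 0.09 (SE 0.13) and the metallothionein Mt1 at -0.39 (SE 0.48). Mt1 ranged from 8.15 to 10.63 among controls, and its pair of rats numbered 2 differed by -2.10.

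NRF2 regulators and partners went the other way in count, with 14 of 20 below control and a median of -0.06; without both arrays numbered 2, 9 of the 20 were above control. Maf, a large MAF transcription factor rather than one of the small MAF partners of NRF2, was at 9.97 to 10.32 in control and 9.57 to 9.96 in treated rats, a difference of -0.39 (SE 0.13). The groups all but touched, and they overlapped with median scaling. The small MAF gene Mafk differed by -0.20 (SE 0.15) and Rbx1, the RING subunit of the ubiquitin ligase that KEAP1 serves, by 0.15 (SE 0.10). None of these passed (limma adjusted p = 0.9999).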

How the data were processed

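Thigh muscle was ground frozen, its RNA purified on columns with a DNase step, and biotinylated cRNA hybridised, per the labels' protocols. The authors deposited a non-normalized table of linear intensity per probe and array (22523 probes), and beside each intensity a detection p-value, per the file headers. The spacing of the detection values showed steps of 1 in 825. Their normalized intensity table is quantile-normalized within 2 sets of 4 arrays, as its sorted values show, and served as an alternative; the series' value table equals it (largest difference 0). Scanner software and background step were not given in the sources used here.

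Intensities were corrected, quantile-normalized and taken to log2 by the neqc function (limma 3.58.1, R 4.3.3; offset 16, background inferred from the detection p-values). Probes with a detection p below 0.05 on at least 4 of 8 arrays were tested (10212) with lmFit and eBayes, without covariates, with Benjamini-Hochberg adjustment over all of them. The test was also run on simulated data with planted differences, and how many it recovered is not reported here. Symbols came from the platform annotation: 13793 probes had 1 symbol, 0 several and 8730 none; the 9 members matched the RefSeq annotation by gene identifier. Named genes are the members, the 3 genes with the smallest p of each role and genes whose groups did not overlap. Genes with several probes were read by the probe with the highest mean. The members, lists and tests were chosen with earlier results of these data known.

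The number of arrays limits precision: the median 95% half-width of a difference was 0.35. The design text gives 4 rats per group. Whether replicate numbers pair the rats is not stated in the labels. Deviations from group means correlated at 0.24, 0.47, 0.12 and 0.43 for numbers 1 to 4. All were over 0.1, so the numbers were taken to pair the arrays. Correlations with another number reached 0.24 for number 3, above its own 0.12, and 0.29 for number 4. A cutoff of 0.1 therefore does not separate same numbers from different ones, and the fits with the replicate block rest on an uncertain pairing.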

Additional observations from a re-analysis of the deposited data

Results flagged for a closer look

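In 4 of the 16 sets of 4 values of the 8 tested genes, a single array stood apart from the other 3 of its group. All 4 were arrays numbered 2, those with the fewest detected probes. For independent sets, chance gives about 1 in 20. The 16 sets come from the same 8 arrays and are not independent. The share of such sets over all tested probes was not computed, so the count does not set these genes apart from other probes. Nqo1 was 9.39 in control replicate 2, where the next control was at 9.05, and 9.89 in compound 177 replicate 2, where the next treated rat was at 9.51. Txnrd1 was 9.12 in control replicate 2, with the next control at 8.27. Nfe2l2 was 9.66 in compound 177 replicate 2, with the next treated rat at 9.96. The part of array quality in these values was not tested.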

How the results depend on the processing

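With 1 array left out at a time, the difference ran from 0.36 to 0.55 for Nqo1, from -0.57 to -0.22 for Txnrd1, from -0.29 to -0.06 for Gsr, from -0.20 to -0.11 for Keap1, from -0.134 to 0.0082 for Nfe2l2, from -0.168 to 0.095 for Hmox1, from -0.071 to 0.147 for Gclc and from -0.074 to 0.029 for Gclm. In these runs and in those within sets the filter was scaled to the number of arrays. Over the 12 other settings Nqo1 ran from 0.41 to 0.49 and kept its sign, as did Txnrd1 (-0.70 to -0.05), Gsr, Keap1 and Nfe2l2. Hmox1 turned to 0.14 with array weights, 0.14 within replicates 3 and 4 and 0.20 without both arrays numbered 2. Gclc turned to -0.016 with median scaling and -0.13 within replicates 3 and 4, and Gclm to 0.019 within replicates 1 and 2. No probe passed under any setting (limma adjusted p of 0.142 or more); at an unadjusted p below 0.05 the count was 396, with 126 under median scaling, 657 with the replicate block, 560 with the set as a block and 954 of 22523 without a filter. The replicate block changed no call. Probes with treated rats above all controls fell from 174 to 55 under median scaling, Nqo1 among them in each scaling tried, and probes below all controls from 72 to 37. The median of the members ran from -0.14 to 0.01 and that of the wider list from 0.05 to 0.07. Each of the 9 members had 1 probe, so no second probe could be read. The cause of the turned signs was not tested; in each case the value lay within the spread between rats. Srxn1 was limited by signal over background.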
